A study of Mus musculus with 3 samples.

Results

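Regulatory T cells (Tregs) are CD4 T cells that hold immune responses in check and depend on the transcription factor Foxp3. Described here are the lymph node Tregs that carried the most mRNA of 7 cell cycle genes, Birc5, Mki67, Top2a, Ccnb2, Tpx2, Hmmr and Rrm2. A cell of the lymph node library was kept with at least 500 UMIs (unique molecular identifiers, counted mRNA molecules), at least 300 genes, at most 10% mitochondrial UMIs and at least 2 UMIs over Cd3d, Cd3e, Cd3g and Cd4. Its score was the UMIs of the 7 genes divided by all its UMIs, and a member was a kept cell with a score above 0 and at or above the 99th percentile. Of 9419 lymph node barcodes, 9305 were kept, and 94 of them were members, 1.01% of the kept cells and 2.19% of their UMIs. The other 9211 kept lymph node cells were the comparison, and the whole series held 10414 kept cells in 3 libraries.

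The series consists of 1 single-cell RNA library each of lymph node, epidermal and dermal Tregs of adult mice. All 3 come from the reporter strain FOXP3-EGFP (C.Cg-Foxp3tm2Tch/J), in which Foxp3-expressing cells fluoresce green, and all were sorted as GFP+ CD4+ CD3+ CD45+ cells. The lymph node was mashed and its library made with the 10x 3' v2 kit, whereas the skin layers were parted with thermolysin, the dermis was digested with collagenase, and the skin libraries used the v3 kit. No treatment is named in the labels, and how many animals each library came from could not be learnt from them. With 1 library per tissue and members chosen from the same counts, all values are descriptions with no test, and every interval covers counting error only.

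A dividing cell copies its DNA in S phase and parts the copies in mitosis. Replication begins with the loading of the Mcm helicase onto DNA (licensing), and proceeds with polymerases, clamp loaders and a supply of nucleotides and histones. Mitosis needs cyclin B with Cdk1, kinetochores that fasten chromosomes to spindle microtubules, a checkpoint that holds back the anaphase-promoting complex (APC/C), and a contractile ring that parts the cells. In lymph nodes most Tregs are resting cells with high Bcl2, Satb1 and lymph node homing genes, while effector Tregs carry genes such as Icos, Klrg1 and Gzmb.

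Promoters of cell cycle genes are known for a few short motifs, and 4 promoters of genes high in the members are printed to show where such motifs lie. They were chosen after the values and the matches were seen. Mitotic genes are known for the cell cycle homology region (CHR, TTTGAA), and replication genes for E2F sites (searched as TTTGGCGC, TTTCCCGC, TTTCGCGC and TTTGCCGC), both on either strand. Windows ran from 250 bases before to 50 after a start, from RefSeq on GRCm38.p6, the mm10 build. Of 85 windows of 77 genes on the kinetochore, spindle, checkpoint and cytokinesis lists, 48 held a CHR (56.5%), against 20.4% of 49 windows on the licensing and fork lists and 17.9% of all 32851 windows. An E2F site was present in 19 of those 49 replication windows (38.8%), in 7.06% of the mitosis windows and in 2.265% of all windows. Among windows of the effector and resting Treg lists described below, 14.8% of 27 and 14.7% of 34 held a CHR and none held an E2F site. The CCAAT box (CCAAT, either strand) was in 69.4% of mitosis, 59.2% of replication and 37.4% of all windows. A match is a description of these letters, and some genes have more than 1 window. Each line below covers the 130 bases before and the 20 after the start, read 5' to 3' on the minus strand, where all 4 genes lie, with the CHR or E2F matches in capitals. In Top2a the CHR reads on the opposite strand, and in Mcm6 the first run of capitals is a pair of overlapping E2F matches.
Ccnb2 (chr9:70421535-70421684): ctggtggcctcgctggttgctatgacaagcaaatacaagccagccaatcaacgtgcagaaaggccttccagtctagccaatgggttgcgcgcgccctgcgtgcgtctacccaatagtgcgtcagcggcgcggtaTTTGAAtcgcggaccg
Top2a (chr11:99024170-99024319): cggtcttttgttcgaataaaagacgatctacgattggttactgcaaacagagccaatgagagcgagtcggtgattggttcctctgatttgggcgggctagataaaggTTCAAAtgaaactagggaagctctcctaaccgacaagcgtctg
Kif23 (chr9:61946780-61946929): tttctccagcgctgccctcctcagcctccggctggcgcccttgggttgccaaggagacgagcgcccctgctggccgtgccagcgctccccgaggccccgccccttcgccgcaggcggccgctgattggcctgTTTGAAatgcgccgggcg
Mcm6 (chr1:128359686-128359835): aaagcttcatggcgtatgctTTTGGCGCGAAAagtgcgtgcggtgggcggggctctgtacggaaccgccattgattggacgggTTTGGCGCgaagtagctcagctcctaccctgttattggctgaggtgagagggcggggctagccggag

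The 7 genes of the rule were far higher in the members, as the rule fixes. Their levels are given in CPM, the UMIs of a gene per 1000000 UMIs added up over a group of cells. Ccnb2, the cyclin B2 of mitosis (chr9:70407692-70421547), stood at 343 CPM in the members and 1.81 CPM in the other cells. Birc5, or survivin, a subunit of the chromosomal passenger complex (chr11:117849251-117855743), stood at 409 against 2.41 CPM. Rrm2, the regulated subunit of ribonucleotide reductase that makes nucleotides for S phase (chr12:24708241-24714146), stood at 407 against 5.04 CPM. These 3 gave the most UMIs of the rule genes in the members. Top2a, the topoisomerase that untangles chromosomes (chr11:98992943-99024189), had 270 against 5.88 CPM, and the proliferation marker Mki67 (chr7:135689784-135716361) had 185 against 2.81 CPM. The spindle factor Tpx2 (chr2:152847964-152895321) had 118 against 0.532 CPM, and Hmmr, a spindle-associated receptor for hyaluronan (chr11:40701395-40733422), had 78.4 against 0.156 CPM. In single members their UMI counts ran from 0 to 23 for Birc5, with a median of 1.5, from 0 to 18 for Rrm2, with a median of 1, and from 0 to 5 for Hmmr, with a median of 0. No single rule gene was present in all members: Rrm2 was found in 57 of the 94, Ccnb2 in 55, Birc5 in 53, Top2a in 52, Mki67 in 51, Tpx2 in 37 and Hmmr in 28.

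The limit fell at a score of 539.328 CPM. The lowest member had 539.374 CPM, from 1 rule UMI among 1854 UMIs, and the highest other cell had 538.213 CPM, from 4 rule UMIs among 7432. The median member had 1208 CPM and the highest 4858 CPM. Because the score divides by depth, 12 members entered with 1 rule UMI, all shallow cells, while 47 members had 10 or more. Conversely, 502 other cells carried a rule UMI, 452 of them just 1, and a deep cell of 23254 UMIs with 12 rule UMIs remained outside. The members held 1293 rule UMIs and the other cells 596, so that 68.4% lay in the members. Members with a UMI of all 7 genes numbered 8, and those with a UMI of 1 of the genes numbered 17.

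**Figure D1:**
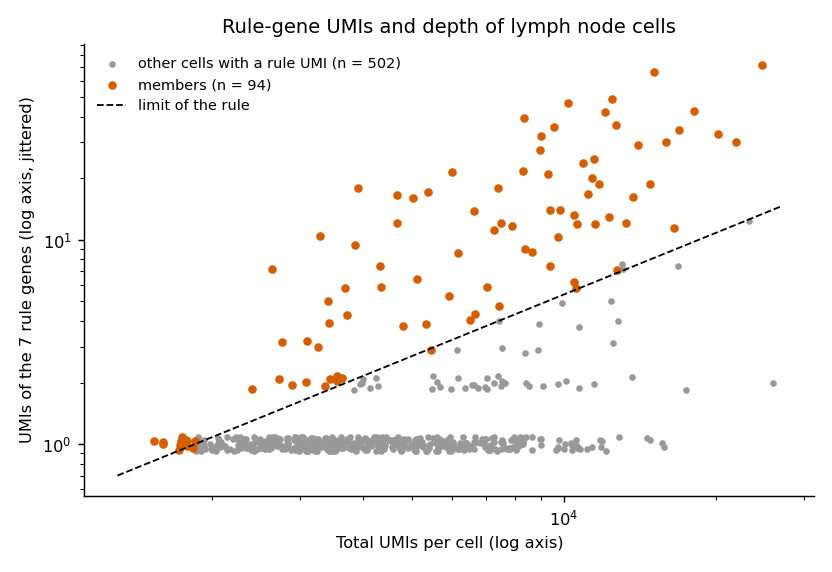
UMIs of the 7 rule genes (vertical, log axis, jittered) against total UMIs per cell (horizontal, log axis) for the 94 members and the 502 other lymph node cells with a rule UMI; the 8709 cells without one are not drawn. The dashed line is the limit of the rule, and members range from 1 rule UMI in shallow cells at the lower left to 73 in a deep cell at the upper right.

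Members held more UMIs than other cells. Their UMI counts ran from 1537 to 24743 with a median of 6653.5, against a median of 3024 (1378 to 26008) in the others. The median number of genes was 2190 against 1156, and 812.5 against 708 after every cell was thinned to 1500 UMIs. The median mitochondrial share was alike, 2.21% and 2.27%. Doublets (2 cells under 1 barcode) were neither called nor removed, and their part in the depth of the members was not tested. Ribosomal protein genes took 24.7% of member UMIs and 34.4% of other UMIs, with a median log2 ratio of -0.44 over 85 genes. Over all 7431 genes with at least 10 CPM in 1 of the groups the median log2 ratio was 0.18, and list medians below are to be read against it.

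Most members carried Treg markers. Ikzf2 (Helios), a transcription factor of thymic Tregs, stood at 907 CPM in the members and 744 CPM in the others. Tnfrsf18 (GITR), a costimulatory receptor, stood at 507 and 508 CPM, and Ctla4, an inhibitory receptor, at 277 and 164 CPM. Il2ra, the high-affinity chain of the interleukin-2 receptor, had 150 CPM in the members and 215 CPM in the others, and Izumo1r (folate receptor 4) had 466 and 888 CPM. Foxp3 itself was sparse in the whole library: 7 members held 1 UMI each, 9.79 CPM (95% interval 3.94 to 20.2), against 22.05 CPM in the others. At own depth 7.45% of members and 7.18% of other cells had a Foxp3 UMI. After thinning to 1500 UMIs it was 0 of 94 members, an exact upper limit of 3.85%, and 3.42% of 9122 others. At that depth 94.7% of members and 92.4% of others had a UMI of at least 1 of the 6 markers, and 39.4% and 36.7% had at least 3. No cell type that should lack these markers was in the sort, so their background share was not measured. Of 16 measured genes on the Treg core list, none was counted higher and 2 were counted lower, with a median log2 ratio of -0.19. A gene was counted at 2-fold or more with at least 50 CPM in the higher group. Of the 2894 genes with at least 50 CPM in 1 of the groups, 364 were counted higher (12.6%) and 73 lower (2.52%). Genes measured on a list, by contrast, needed only 10 CPM in 1 of the groups, as 7431 genes of the library had. The same 364 and 73 calls stand among those 7431 genes, so shares of a list are to be read against that larger number. Where most genes of a list reach 50 CPM, the 12.6% and 2.52% are the nearer base. Of all calls 83.3% were thus higher, a share that was 60.9% under TMM scaling (232 higher, 149 lower), 60.3% under median-of-ratios scaling (231 and 152) and 64.3% with totals that left out mitochondrial and ribosomal protein genes (330 and 183). The pair counted lower were the receptor Gpr83, with 44.8 against 108 CPM, and Lrrc32 (GARP), which presents latent TGF-beta, with 35.0 against 87.8 CPM.

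Markers of other cells were few. Of the 10 erythroid and granulocyte genes all were at 0 UMIs in the members, and of 9 CD8 and NK genes 6 were at 0, Cd8a, Ncr1 and Klrb1c among them. The CD8 and NK list summed to 155 CPM in members and 75.2 CPM in others. Nkg7, a granule protein and the only gene of the 8 lists counted higher, made up 92 of its 111 UMIs, and 50 of the list's UMIs lay in 1 member. The myeloid list summed to 472 and 351 CPM, led by Cd74 at 241 and 175 CPM, and the B and plasma cell list to 113 and 104 CPM, led by Xbp1 at 71.4 and 70.9 CPM. Conventional T cell genes summed to 101 and 122 CPM, led by Il2 at 56.0 and 44.2 CPM, with Ifng, Il4, Il17a and Il21 at 0 in the members. The stromal and endothelial list summed to 44.8 and 86.8 CPM, led by Pecam1, which resting T cells also express, with 27 of its 32 UMIs. Genes of innate lymphoid and gamma delta T cells summed to 2.80 and 3.94 CPM, and thymocyte genes to 29.4 and 24.6 CPM, led by Cd8b1 with 18 of its 21 UMIs, at 25.2 and 19.7 CPM, with Rag1 and Rag2 at 0 in the members. Limiting both groups to cells with at most 3% of UMIs on these lists left 93 members and 367 genes counted higher and 72 lower.

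Genes of DNA replication were higher in the members across the whole pathway. All 19 measured licensing genes had a ratio above 1, and 11 were counted, with a median log2 ratio of 2.48. Among the subunits of the Mcm helicase, Mcm5 had 200 against 20.3 CPM (9.84-fold, 95% interval 8.15 to 11.8), Mcm3 had 185 against 23.6 CPM, and Mcm6, named for its promoter, 238 against 59.8 CPM. In single members Mcm5 ran from 0 to 9 UMIs with a median of 1, and in other cells from 0 to 7 with a median of 0, so the cells overlapped. Gins2, a part of the active helicase, had 72.8 against 4.25 CPM, and Gmnn (geminin), which blocks a second round of licensing, had 153 against 18.6 CPM. The licensing list summed to 1657 CPM in members and 298 CPM in others, a ratio of 5.56 (5.23 to 5.91).

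At the replication fork 21 of 31 genes were counted higher and none lower, with a median log2 ratio of 2.42. The list was led by 2810417H13Rik, the PCNA-associated factor (Pclaf), at 616 CPM in the members and 2.72 CPM in the others, 226-fold (179 to 288). It was found in 58 of the 94 members, with up to 21 UMIs, and in 60 of the 9211 others. Uhrf1, which carries DNA methylation onto new strands, stood at 68.6 against 2.25 CPM. Clspn (claspin), a checkpoint mediator at the fork, stood at 56.0 against 1.25 CPM, and Chaf1a, a chaperone that lays down histones behind it, at 53.2 against 1.53 CPM. Of 18 genes of nucleotide synthesis only 4 were counted, all of them in making deoxynucleotides. These were the thymidine kinase Tk1 (97.95 against 2.97 CPM), the thymidylate synthase Tyms (192 against 15.3 CPM), Rrm1, the partner of Rrm2 (154 against 13.3 CPM), and the dUTPase Dut (319 against 58.6 CPM). The purine and one-carbon genes Gart, Mthfd1 and Shmt2, named after their values were seen, had ratios of 0.86, 1.07 and 1.19.

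Histone and chromatin genes were higher as well. Hist1h2ap, a replication-dependent H2A gene, had 539 against 6.60 CPM, with 37 members holding from 1 to 37 UMIs. Of 17 measured histone genes 4 were counted, the others being the linker histone Hist1h1b (70.0 against 1.22 CPM), Hist1h2ag (57.4 against 0.876 CPM) and Hist1h4i (50.4 against 10.8 CPM). Histone mRNAs of this kind lack poly(A) tails and have near-identical copies, so their split between genes is uncertain. On the chromatin list 17 of 24 genes were counted higher. Hmgb2, a DNA-bending protein of dividing cells, stood out in single cells, with 3564 against 250 CPM, a ratio of 14.3 (13.6 to 14.9). It had a median of 20.5 UMIs per member (0 to 121) and a highest value of 35 in the other cells. Lmnb1, the lamin B1 of the nuclear envelope, stood at 414 against 34.8 CPM, the variant H2afx, known for marking DNA breaks, at 210 against 36.8 CPM, and Hmgb3 at 82.6 against 15.4 CPM. Without the deepest 5% of cells the limit was set anew, and the members were partly other cells than before. Of the 24 chromatin genes 9 were then counted, and of the 17 histone genes 2. H2afx was at 1.73-fold and Hist1h1b at 2.92-fold, both not counted, and Hmgb2 was at 8.35-fold.

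Many mitotic genes had large ratios, from levels near 0 in the other cells. Gene medians of the mitotic lists were above those of replication, but the summed levels were not ordered that way, with ratios of 5.56 for licensing and 5.30 for the fork against 7.89 for kinetochore, 4.42 for spindle, 4.67 for cytokinesis and 3.90 for checkpoint genes. Most of the rule genes are themselves mitotic, and many listed genes were measured only through the members. Ccna2 (cyclin A2), which drives late S phase and entry into mitosis, had 151 against 0.594 CPM, 254-fold (155 to 439), and its single-cell range was 0 to 9 UMIs in members and 0 to 2 in others. Cdk1, its kinase partner, had 143 against 1.85 CPM, and Ccnb1 (cyclin B1) had 88.2 against 1.53 CPM. Cks1b, a small Cdk-binding subunit, had 291 against 10.8 CPM. On the list of cyclins and Cdks 7 of 23 genes were counted higher and none lower, with a median log2 ratio of 3.66. The D cyclins, which act at the entry into the cycle, were not counted. Ccnd2 had 448 CPM in members and 649 CPM in others, and Ccnd3 had 256 and 155 CPM, both named after their values were seen. Cdc25c, likewise named afterwards, had 9 UMIs in the members and 0 in the other cells.

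Of 26 kinetochore genes 7 were counted, with a median log2 ratio of 4.64. Cenpf stood at 90.9 against 0.594 CPM, the motor Cenpe at 78.4 against 0.782 CPM, Cenpm at 85.4 against 1.41 CPM, and Spc24, a subunit of the microtubule-binding Ndc80 complex, at 134 against 7.88 CPM. Among 23 spindle genes 11 were counted, with a median of 4.58. Kif2c, a kinesin that takes microtubules apart, had 53.2 against 0.219 CPM, Nusap1, a microtubule-bundling protein, 109 against 0.657 CPM, and Kif22, a chromosome-arm kinesin, 79.8 against 1.41 CPM. Cep55, an organiser of abscission placed on the same list, had 57.4 against 0.438 CPM. Of 7 tubulin and stathmin genes 6 were counted higher, against 1 without the deepest 5% of cells, where the median log2 ratio was 0.51 in place of 1.68. With all cells kept, the tubulins were higher from already high levels, Tuba1b with 1311 against 331 CPM, Tuba1c with 158 against 31.2 CPM and Tubb4b with 381 against 119 CPM. None of these 3 was counted without the deepest cells, at 1.64-fold, 1.42-fold and 1.40-fold. Stmn1 (stathmin), which binds free tubulin, had 1248 against 25.1 CPM and up to 41 UMIs in a member, against 16 in the others. Tubulin mRNAs are similar to one another, so counts between them can be split.

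Genes that time anaphase and cell separation followed. On the checkpoint and APC/C list 10 of 22 were counted, among them Ube2c, the ubiquitin-loading partner of the APC/C (200 against 2.19 CPM), and Cdca3 (150 against 1.59 CPM). The passenger complex kinase Aurkb had 60.2 against 0.751 CPM and its partner Cdca8 (borealin) 179 against 3.63 CPM. Of 12 cytokinesis genes 5 were counted, including the kinesin Kif23 (56.0 against 1.22 CPM), the kinase Cit (53.2 against 1.16 CPM) and the formin Diaph3 (57.4 against 1.41 CPM). The transcription factor Mxd3, placed on that list, had 53.2 against 0.188 CPM, and the remaining one, Racgap1, 143 against 7.60 CPM, was named after its value was seen. Of 15 condensin and cohesin genes 5 were counted, with Ncapd2 at 67.2 against 6.16 CPM, Smc2 at 181 against 22.5 CPM, the cohesin ring subunit Rad21 at 140 against 41.8 CPM and Ncaph2 at 133 against 52.9 CPM. Smc1a, named afterwards, had 172 against 79.8 CPM.

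**Figure D2:**
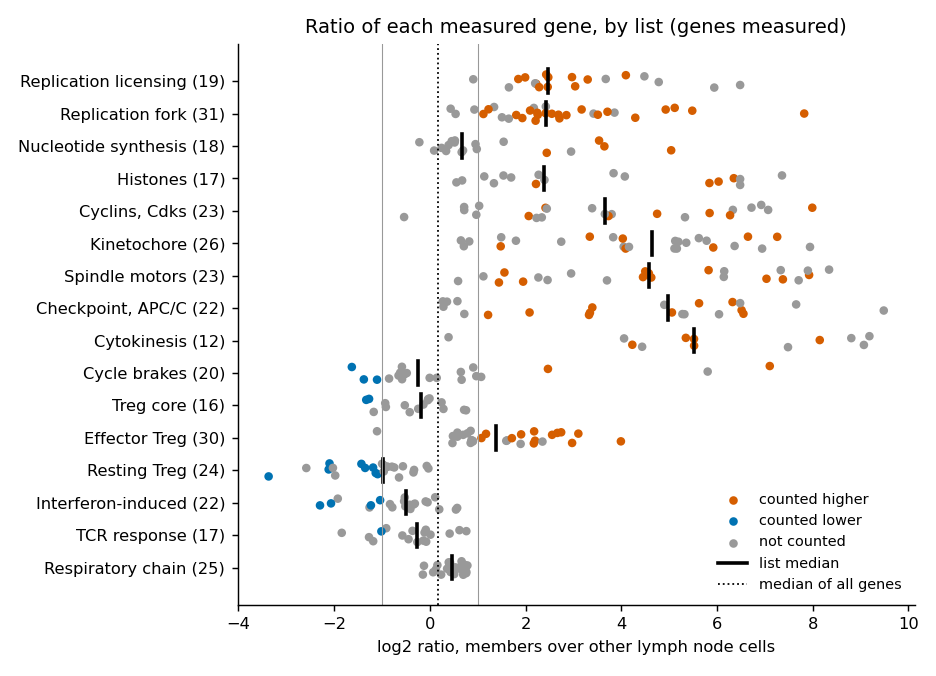
The log2 ratio of members over other lymph node cells (horizontal) for each measured gene of 16 lists (rows, number of genes in brackets); orange points were counted higher, blue points lower, bars are list medians and the dotted line is the median of all genes, 0.18. The replication and mitosis lists lie to the right, up to a median of 5.52 for cytokinesis, the effector list has a median of 1.39, and the resting list has a median of -0.98.

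Inhibitors of the cycle went both ways. Cdkn3, a phosphatase acting on Cdks, had 60.2 against 0.438 CPM, and Cdkn2c (p18), an inhibitor of Cdk4 and Cdk6, had 85.4 against 15.4 CPM. Btg1, an antiproliferative gene of resting lymphocytes, had 540 against 1403 CPM, and Pik3ip1, an inhibitor of PI3 kinase, had 26.6 against 82.2 CPM. Cdkn1b (p27), chosen after its values were seen, had 29.4 against 63.1 CPM. These 5 were the genes counted among 20 brakes, whose median log2 ratio was -0.24. It turned to 0.17 against other cells at least as deep as the median member, and to 0.11 without the deepest 5% of cells. Brakes counted higher and lower were 3 and 1 in the first of these comparisons and 1 and 0 in the second. Btg1 was counted in neither, at 1.88-fold and 1.30-fold lower. Pik3ip1 was counted only in the first, at 2.21-fold lower, and was 1.57-fold lower in the second. Among 12 cycle transcription factors none was counted higher, since E2f1, E2f8, Foxm1 and Mybl2 all stayed under 50 CPM. E2f8 had 16 UMIs in the members and 22.4 CPM, E2f1 had 25 UMIs and 35.0 CPM, and these were named after their values were seen, as was Myc, counted lower with 18.2 against 52.9 CPM. E2f4 had 97.9 against 59.5 CPM. Myc is known for driving growth and entry into the cycle, and its 13 UMIs lay in 8 members.

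The effector Treg genes were higher together. Of 30 measured, 29 had a ratio above 1 and 13 were counted, with a median log2 ratio of 1.39 and a summed level of 14616 CPM against 3624 CPM. Lgals3 (galectin-3) had 236 against 14.9 CPM, 15.9-fold (13.3 to 19.01), in 34 of the 94 members. Gzmb (granzyme B), a protease of cytotoxic granules, had 295 against 34.3 CPM, 8.60-fold (7.38 to 9.97), in 29 members. The calcium-binding S100a6 had 2291 against 342 CPM, and Anxa2, an annexin of the membrane, had 409 against 52.0 CPM. These levels were spread unevenly, since the median member held no UMI of Gzmb or Lgals3 and 9 UMIs of S100a6. Klrg1, a receptor of terminally differentiated effector Tregs, had 88.2 against 19.2 CPM, and the costimulatory receptor Icos had 459 against 203 CPM. Maf, shared with the follicular list, had 169 against 80.1 CPM, and Id2, an inhibitor of E proteins, 130 against 36.9 CPM. Cd44, Itgae, Cxcr3 and the growth factor Areg were not counted, at 85.4 and 52.7, 84.0 and 56.3, 63.0 and 33.8, and 12.6 and 4.16 CPM in members and others. Of 14 receptors for chemokines and other guidance cues, the skin-homing Ccr10 (105 against 9.60 CPM) and the inflammatory Ccr2 (169 against 37.5 CPM) were counted higher. Ccr7, the receptor for entry into lymph nodes, had 122 and 226 CPM.

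Genes of resting Tregs were lower. All 24 measured had a ratio under 1, and 8 were counted, with a median log2 ratio of -0.98. Bcl2, the survival factor, had 112 CPM in members and 478 CPM in others (4.27-fold lower), and was found in 43 of the 94 members against 63.7% of other cells. The chromatin organiser Satb1 had 29.4 against 127 CPM (4.32-fold lower), the actin regulator Evl 102 against 275 CPM, and the lymphocyte GTPase Gimap4 192 against 489 CPM. Klf2, a transcription factor of resting T cells, had 732 and 765 CPM and was not counted. Beyond the lists, the lowest ratios included Tcp11l2 (23.8 against 85.3 CPM), Ms4a4c (19.6 against 62.3 CPM), the death receptor Tnfrsf25 (23.8 against 75.3 CPM), the peptide co-receptor Ramp1 (23.8 against 74.9 CPM), the T cell kinase Txk (29.4 against 92.0 CPM), Actn1, an alpha-actinin (30.8 against 94.0 CPM), and Ift80 (28.0 against 91.1 CPM). Of these, only Actn1 was still counted without the deepest 5% of cells, at 2.22-fold lower. Tcp11l2 then had a ratio of 1.003, and the others lay between 1.601-fold and 1.901-fold lower. Ms4a4c was also not counted against other cells at least as deep as the median member, at 1.92-fold lower. The nuclear noncoding RNA Malat1, named after its value was seen, took 10859 CPM in members and 29450 CPM in others.

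The depth of the cells moved with the effector and resting lists. Against the 499 other cells with at least the median UMIs of the members, a comparison added after the data were seen, the effector median was 0.74 with 11 counted higher, and the resting median was -0.66 with 3 counted lower. Gzmb was then 4.71-fold, Lgals3 7.46-fold and S100a6 3.47-fold higher, while Icos (1.67-fold) and Maf (1.47-fold) were no longer counted, as under TMM scaling (1.92-fold and 1.80-fold). Bcl2 and Satb1 were still counted lower, at 2.68-fold and 2.24-fold, and Evl and Gimap4 were not. Klf2 changed direction, with a ratio of 1.42, and was not counted. The cycle lists kept most of their counts, with 11 of 19 licensing genes, 7 of 26 kinetochore genes and 10 of 23 spindle genes. With the deepest 5% of cells left out and the limit set anew, 89 members stood against 8750 other cells. The deepest members fell out and cells under the first limit came in, so the members were partly other cells. The cause of lost calls there was not tested. The effector list then had 18 counted higher and a median of 1.66, and the spindle list 2 counted higher. The resting list had 3 counted lower and a median of -0.36. Of the 96 named genes that were counted in all cells, 53 were no longer counted in that comparison, 26 of them still past 2-fold but under 50 CPM. Against the equally deep other cells 9 of the 96 were lost. The 96 include the 7 rule genes, which the rule itself makes higher. Without the deepest cells Bcl2 was 1.97-fold lower and not counted, and Satb1 was 2.20-fold lower.

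**Figure D3:**
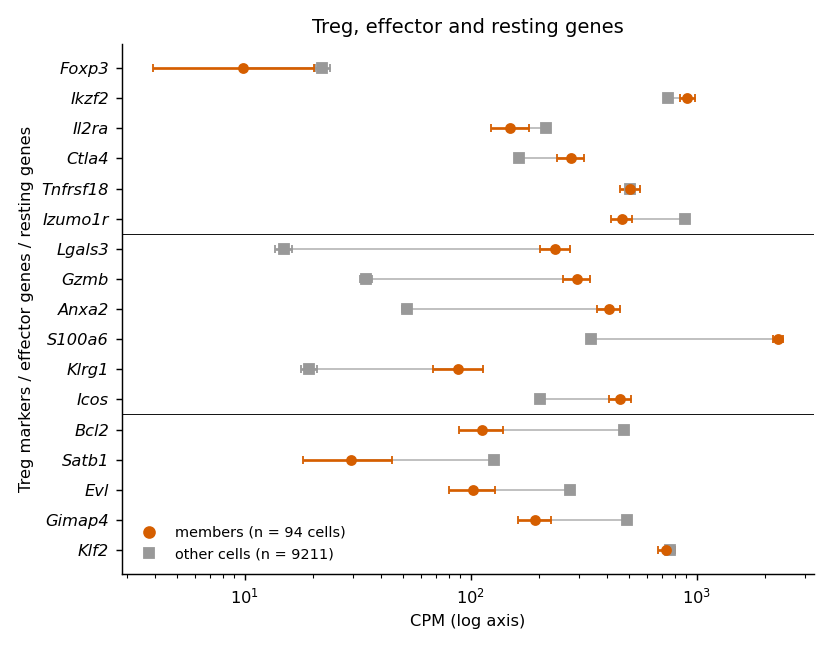
CPM (horizontal, log axis) of 6 Treg markers, 6 effector genes and 5 resting genes in the 94 members (circles) and 9211 other lymph node cells (squares), with exact 95% Poisson intervals for counting error. Effector genes lie further right in members, Lgals3 at 236 against 14.9 CPM, resting genes such as Bcl2 lie further left, and Tnfrsf18 lies at the same level.

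Signalling and metabolic lists differed less. Of 17 T cell receptor response genes 1 was counted, Cd69, an early activation marker, with 46.2 against 93.0 CPM, and 10 of its 33 UMIs lay in 1 member. The orphan receptor Nr4a1 had 56.0 and 36.4 CPM, but 20 of its 40 UMIs lay in 1 member. Nfkb1 had 119 and 70.0 CPM and Dusp2 146 and 216 CPM. Of 16 interleukin-2 and STAT5 genes 1 was counted lower, the feedback inhibitor Socs1, with 54.6 against 145 CPM. Socs2 (51.8 and 97.7 CPM), Cish (43.4 and 77.3 CPM) and Mcl1 (75.6 and 115 CPM) had ratios under 1 and were not counted. The median of this list was -0.36. That of the T cell receptor list was -0.26, and it turned to 0.03 when the rule UMIs were not divided by depth.

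Of 22 interferon-induced genes 4 were counted lower and 18 had a ratio under 1, with a median log2 ratio of -0.50. The GTPase genes Gbp2 (51.8 against 121 CPM) and Iigp1 (35.0 against 71.8 CPM) were 2 of them, and Ifit1 (15.4 against 75.4 CPM) and Usp18 (12.6 against 52.6 CPM), named after their values were seen, were the others. Irf7 had 32.2 and 57.2 CPM and Rtp4 49.0 and 84.2 CPM. The summed level of the list went the other way, 6728 CPM in members and 6371 CPM in others, led by Ifi27l2a, named afterwards, with 3034 and 2077 CPM. With the deepest 5% of cells left out the median was 0.17, with 1 gene counted lower.

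Glycolysis had 4 of 19 genes counted higher, Tpi1 (200 against 56.5 CPM), Pgk1 (57.4 against 19.3 CPM), Pgam1 (194 against 76.1 CPM) and Gapdh (1598 against 648 CPM). Against other cells at least as deep as the median member 2 of the 4 were counted, with Gapdh and Pgam1 both at 1.73-fold, and none was counted without the deepest 5% of cells, with Tpi1 at 1.81-fold and Pgk1 at 1.77-fold. Several of these have processed pseudogenes, so their counts are uncertain. Pdk1, which turns pyruvate away from mitochondria and was named after its value was seen, was counted lower with 26.6 against 63.1 CPM. The respiratory chain list had 23 of 25 genes above a ratio of 1 and none counted, with a median of 0.46. Its named genes Atp5g3, Ndufa4, Cox5a and Cox8a lay between 1.66-fold and 1.72-fold. Transport genes likewise had none of 11 counted, with Slc29a1, a nucleoside transporter, at 81.2 and 42.7 CPM, the glutamine carrier Slc1a5 at 109 and 86.8 CPM, and the mitochondrial carriers Slc25a3 and Slc25a5 at 507 and 380 and at 982 and 662 CPM.

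On the ribosome biogenesis list the chromatin-associated Ptma (5163 against 1998 CPM) and Odc1, which starts polyamine synthesis (112 against 52.3 CPM), were counted among 27. Of the 80 Odc1 UMIs in the members 15 lay in 1 member. Odc1 was 1.24-fold and not counted against other cells at least as deep as the median member, and Ptma was 1.72-fold and not counted without the deepest 5% of cells. The median of the list, 0.37, turned to -0.02 and -0.23 in these comparisons. Set had 486 and 292 CPM and the chaperonin Hspd1 222 and 125 CPM. Among 25 proteasome and folding genes all were above a ratio of 1, and the endoplasmic chaperone Hsp90b1 was counted, with 413 against 159 CPM. Tcp1, Psmb7 and Psmd14 lay at 255 and 144, 220 and 125, and 153 and 90.5 CPM. In the sterol list Fdps, of the mevalonate pathway, was counted with 93.7 against 41.4 CPM. Among 18 apoptosis genes Bak1, a pore-forming death effector, was counted higher with 92.4 against 37.6 CPM, and Bcl2 lower. Fas had 37.8 and 59.0 CPM.
Apoptosis genes had a median of 0.11, which turned to -0.13 under TMM scaling.

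Follicular genes had a median of 0.14, which turned to -0.10 under TMM scaling. Of the 8 follicular genes Maf and Id2 were counted higher, and Slamf6 had 204 and 161 CPM and Sh2d1a 146 and 156 CPM.

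The members were not uniform. Grouped by rule UMIs, the 12 members with 1 such UMI had a median of 1741.5 UMIs, and the 22 members with 20 or more had a median of 12253.5. The licensing list summed to 193 CPM (95% interval 52.6 to 495) in the 12 members with 1 rule UMI, against 287 CPM in cells with none. It stood at 1318 CPM in the 19 members with 2 to 4, 1797 CPM in the 16 with 5 to 9, 1434 CPM in the 25 with 10 to 19, and 1961 CPM in the 22 with 20 or more. The 12 members that entered on 1 UMI were thus within counting error of cells without a rule UMI on this list. Kinetochore genes went from 386 CPM (167 to 761) in those 12, against 192 CPM in cells with none, to 1982 CPM in the 22. The fork, spindle and checkpoint intervals of the 12 also held the level of cells with none. The 12 lay above that level on the cytokinesis list, at 386 CPM (167 to 761) against 143 CPM. They did so on the chromatin list too, at 7003 CPM (5910 to 8240) against 5657 CPM. Lists outside the cycle also lay above cells with none, such as the follicular list, at 1304 CPM (859 to 1897) against 570 CPM. The T cell receptor, interleukin-2 and STAT5, apoptosis and chemokine receptor lists did likewise. On the cycle transcription factors the 12 lay below, with 0 UMIs and an upper limit of 178 CPM, against 218 CPM.

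The effector list was near the level of other cells in members with 1 rule UMI and high in all the rest. It summed to 3373 CPM in other cells with no rule UMI, 6574 CPM in the 502 other cells with one, and 4009 CPM (3193 to 4969) in members with 1 rule UMI. From 2 to 4 rule UMIs upward it lay between 12470 and 16003 CPM. The resting list ran from 9273 CPM (8008 to 10682) in members with 1 rule UMI, against 7720 CPM in cells with none, to 3792 CPM in those with 20 or more. Bcl2 had 1063 CPM (666 to 1609) in the members with 1 rule UMI, 40.8 CPM in those with 2 to 4, and 54.96 CPM in those with 20 or more. Hmgb2 went from 386 CPM in the first of these groups to 2595 and 4348 CPM. Ikzf2 was highest in members with 2 to 4 rule UMIs (1454 CPM, 1191 to 1756) and stood at 680 CPM (589 to 782) in those with 20 or more. Leaving out the 12 members with 1 rule UMI gave 379 genes counted higher and 77 lower.

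**Figure D4:**
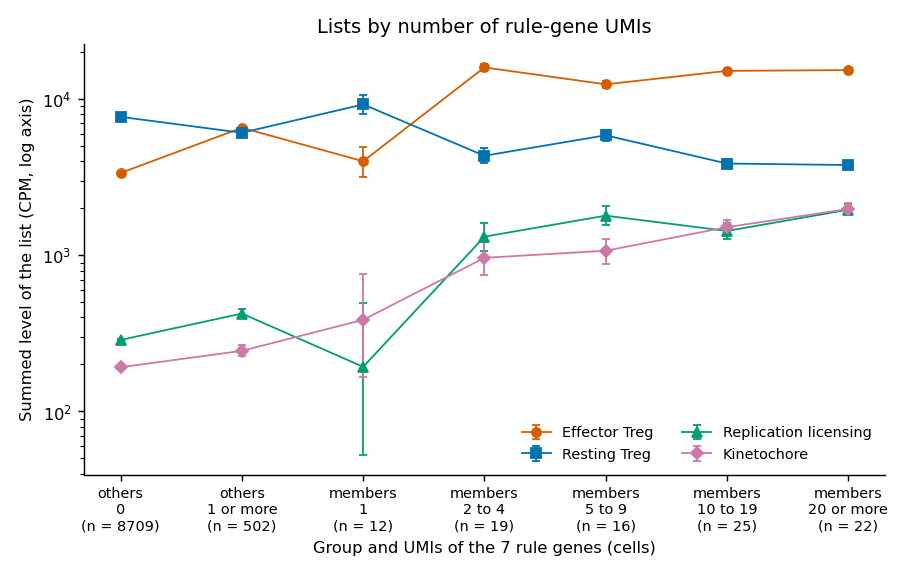
Summed level in CPM (vertical, log axis) of the effector, resting, licensing and kinetochore lists in 7 groups of lymph node cells set by the number of rule UMIs (horizontal, cells in brackets), with exact 95% Poisson intervals for counting error. Members with 1 rule UMI lie near cells with none on the effector and licensing lists and at 9273 against 7720 CPM on the resting list, and from 2 to 4 rule UMIs on the effector list lies between 12470 and 16003 CPM.

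Phases of the cycle were compared by 2 sums of genes outside the rule, 1 of S phase (licensing, fork, Rrm1, Tyms and Tk1) and 1 of mitosis (kinetochore, spindle, checkpoint, cytokinesis, Ccna2, Ccnb1 and Cdk1). Per 10000 UMIs, members ran from 0 to 211 on the S list with a median of 34.2, and other cells from 0 to 103 with a median of 8.74. On the mitosis list members ran from 0 to 158 with a median of 53.5, and other cells from 0 to 56.3 with a median of 13.04. Above the 99th percentile of the other cells on both lists (30.4 and 34.3 per 10000) lay 45 members, with 29 above on mitosis only, 3 on S only and 17 on neither. Most rule genes are mitotic, so the rule itself favours members high on mitosis. These counts therefore do not give the phase make-up of dividing Tregs. Of the 12 members with 1 rule UMI 9 were above on neither. Among the 9211 other cells 10 were above on both, which the percentile itself limits.

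Members with and without Rrm2 differed most in replication. The 57 with an Rrm2 UMI had a median of 8626 UMIs and the 37 without one 4328, so depth moved with the split. The licensing list summed to 2148 CPM with Rrm2 and 442 CPM without, a ratio of 4.86 (3.92 to 6.08), and the fork list to 4516 and 1011 CPM. The kinetochore list stood at 1649 and 1297 CPM, a ratio of 1.27 (1.11 to 1.46), and the checkpoint list at 2333 and 1813 CPM. By gene, Hist1h2ap had 737 CPM with Rrm2 and 48.6 CPM without, and 2810417H13Rik had 829 and 87.5 CPM. Cdk1 had 193 and 19.4 CPM and Nusap1 147 and 14.6 CPM. Cenpf (92.4 and 87.5 CPM), Cenpe (76.6 and 82.6 CPM), Ccnb1 (86.5 and 92.3 CPM) and Ube2c (212 and 170 CPM) lay within counting error of each other. Clspn had 40 UMIs with Rrm2 and 0 without. Outside the cycle, the interferon list had 5638 CPM with Rrm2 and 9422 CPM without, and Klrg1 62.9 and 151 CPM. Gzmb stood at 291 and 306 CPM. Members without Rrm2 had to pass the limit on the other rule genes, most of them mitotic. The rule thus favours mitotic over replication genes in that group, and no conclusion is drawn from either. Their rule genes are not compared.

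**Figure D5:**
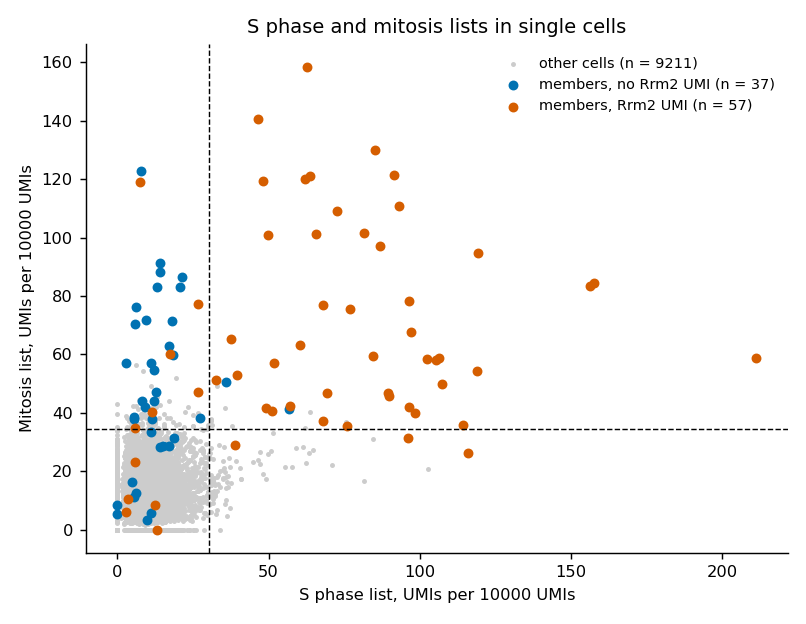
UMIs of the S phase list (horizontal) and the mitosis list (vertical) per 10000 UMIs in single lymph node cells, with 9211 other cells in grey, 37 members without an Rrm2 UMI in blue and 57 with one in orange. Dashed lines are the 99th percentiles of the other cells, 30.4 and 34.3, and 45 members lie above both.

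Skin cells at the same limit were set beside the members. Of the 271 kept epidermal cells 14 reached it (5.17%, exact 95% interval 2.85% to 8.52%), as did 33 of the 838 dermal cells (3.94%, 2.73% to 5.49%). The cells picked differed in depth. Median UMIs at the limit and in the rest were 6653.5 and 3024 in lymph node, 15373.5 and 7015 in epidermis, and 3559 and 4825 in dermis. Of the cells at the limit 47 of 94, 9 of 14 and 6 of 33 had 10 or more rule UMIs. After thinning to 1500 UMIs, cells with at least 2 rule UMIs were 0.618% of 9216 lymph node, 4.20% of 262 epidermal and 1.96% of 815 dermal cells, with 89, 9 and 23 shallower cells left out. The libraries are 1 per tissue and made with different kits, so these shares are values side by side. The epidermal and dermal libraries shared 43 barcodes, while lymph node shared 0 with epidermis and 1 with dermis, not a member. Of the cells at the limit 9 epidermal and 9 dermal ones carried a shared barcode. Without barcodes found in another library the shares were 5 of 236 in epidermis (2.12%) and 24 of 811 in dermis (2.96%).

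The cells at the limit had higher licensing and kinetochore sums than the rest of their library in all 3 tissues, except for the kinetochore sum in epidermis once shared barcodes were left out. Over the genes measured in lymph node, the licensing ratio was 5.56 in lymph node, 4.47 in epidermis and 2.07 in dermis, and the kinetochore ratio was 7.88, 8.49 and 3.94. Without shared barcodes the epidermal ratios were 1.24 and 0.982, over 5 cells, and the dermal ones 1.72 and 3.39. Over the same 5 epidermal cells the nucleotide list had a ratio of 0.546, the cytokinesis list 1.38 and the checkpoint list 1.56. The effector list had a ratio of 4.04 in lymph node (3.96 to 4.12), 1.02 in epidermis (0.986 to 1.06) and 0.995 in dermis (0.964 to 1.03). Its level in the rest of the cells was 3615 CPM in lymph node, 16321 CPM in epidermis and 25793 CPM in dermis, and in the lymph node members it was 14605 CPM. S100a6 had 2291 CPM in the members, 3090 CPM in the rest of the epidermal cells and 5667 CPM in the rest of the dermal cells. For Gzmb these levels were 295, 292 and 426 CPM. The difference between tissues was not tested.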

How the data were processed

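Single-cell RNA libraries of sorted lymph node, epidermal and dermal Tregs were used, 1 per tissue. The deposited values are raw UMI counts per gene and barcode, with no normalization. Reads were processed by the authors with Cell Ranger on mm10, per the submitters' processing notes. The version is 4.0.0 for the skin libraries, per the file headers. For lymph node no header or label names it. The matrices hold 27998 genes. Kept cells had a median of 3034 UMIs in lymph node, 7052 in epidermis and 4813 in dermis, and 32690130, 2188897 and 4532978 UMIs in all. The members, the 30 functional lists and the 8 lists of other cell types were chosen with earlier results of these data known.

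For each gene the counts were added up over the members and over the other kept lymph node cells and scaled to CPM. Each ratio has a 95% interval found exactly by treating the members' share of a gene's UMIs as binomial. UMIs are single molecules, but cells of 1 library are not replicates, so intervals cover counting error only. A gene was counted at 2-fold or more with 50 CPM in the higher group. List medians take genes with 10 CPM in 1 group, without the rule genes, and a count of 0 is set to 3 counts in a ratio. Levels are per UMI and not per length. Shares have exact Clopper-Pearson intervals. Named were the 7 rule genes, 18 genes set by hand, up to 4 genes per functional list with the largest ratio either way (50 CPM and a UMI in at least 10 members), and the 10 highest and 10 lowest ratios under the same limits, leaving out mitochondrial, ribosomal protein, predicted, receptor segment, sex-linked, haemoglobin and rule genes. Gene positions are from GENCODE vM21 (mm10) and promoters from RefSeq (GRCm38.p6). A window was found for 6 of the 7 rule genes. The ratio and the call were tested on simulated data. Doublets were not called. Tools were Python 3.11.15, numpy 2.4.6, pandas 2.3.3, scipy 1.17.1, matplotlib 3.10.9, R 4.3.3 and edgeR 4.0.16 (TMM factors only). The alternatives were other cell filters, limits of the score, comparison cells, thinning, scalings and CPM limits. A few genes are not reported here, and 1 of them was left out of the S phase sum, a change from the planned sum made after its values were known.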

Additional observations from a re-analysis of the deposited data

Results flagged for a closer look

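The 114 lymph node barcodes that failed the filters of the rule, and so entered no comparison, also held rule genes. Of these, 8 had a rule UMI and 7 reached the limit of the members. Their 24 rule UMIs came to 95.5 CPM of their 251368 UMIs, against 57.8 CPM in the 9305 kept cells. This is a value from barcodes outside the comparison, with no test.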

How the results depend on the processing

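The 364 genes higher and 73 lower in the members were recomputed under 18 alternatives, 17 of them planned. Each step below changes 1 choice. The higher and lower counts were 227 and 22 at the 98th percentile, and 227 and 42 when rule UMIs were not divided by depth. They were 232 and 25 without cells above the 95th percentile of UMIs, where 89 members were chosen anew (151 and 11 of them shared with the main lists). They were 671 and 275 in cells with a Foxp3 UMI only (7 members), and 908 and 341 at 10 CPM or more, and 2049 and 707 with no CPM limit. TMM scaling gave 232 and 149, median-of-ratios scaling 231 and 152, and totals without mitochondrial and ribosomal protein genes 330 and 183. With the percentile raised until 47 cells were members, 113 were lower. Against the other cells at or above the median UMIs of the members, an alternative chosen after seeing the data, 37 were lower. These scalings moved the share of calls that were higher from 83.3% to 60.9%, 60.3% and 64.3%, and the median log2 ratio of all genes from 0.18 to -0.05, -0.06 and -0.03. In each other alternative both counts stayed within 1.5 times, but the genes were not always the same. Thinning to 1500 UMIs gave 444 higher and 106 lower, of which 248 and 39 were shared with the main lists. The mean of each cell's CPM gave 326 and 52, of which 274 and 42 were shared. Of 2160 values for the 135 named genes, 1909 kept their call, 193 lost the call and 55 gained one. The 1909 include changes of sign in genes counted in neither setting, such as Klf2, with log2 ratios from -0.39 to 0.50. Where a gene was counted in either setting, 3 values changed sign. Those were Tcp11l2 (log2 ratio 0.004423) and Iigp1 (0.3442) without cells above the 95th percentile of UMIs, and Itgae (-1.861) in cells with a Foxp3 UMI only. The cause of these changes was not tested. No paired analysis was possible because each tissue has 1 library.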
